A study of Rattus norvegicus with 2 samples.

Results

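Lipocalin 2 (Lcn2), the WAP-domain gene Wfdc21 and 4 genes of neutrophil proteins (S100a8, S100a9, Mpo and Camp) were followed in rat liver after alcohol feeding. The genes were picked because Lcn2 and Wfdc21 lay far apart between the arrays, so their differences are descriptions and carry no test. They are 6 of 17108 gene symbols on the array and were read by 9 probes, found by gene symbol, with Wfdc21 found through its Entrez gene ID because the deposited table lists it as LOC360228, a WDNM1 homolog. The propolis group, sub-group AT-EEP in the labels, held male Wistar rats, 22 weeks old, given 52% alcohol dosed at 1% body weight over 7 weeks and then EEP in 50% ethanol at 0.1% body weight over 4 more weeks. The saline group, sub-group AT-NS, received normal saline at the same dose and for the same time, and whether it also received ethanol then is not stated, so that EEP and the ethanol it came in cannot be told apart. The labels call the later treatment simultaneous, and whether alcohol feeding went on during it is not clear. EEP is taken here as the propolis extract of the series' title. All the rats had thus been fed alcohol to give them a fatty liver, and a group without alcohol was not analysed here. RNA of 6 livers was pooled for each group and each pool was read on 1 array, so that differences between animals cannot be seen. No p-value exists for any comparison. Differences are given on the log2 scale, propolis minus saline, and a probe counts as detected where the authors gave it the letter P, against A for the others.

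Neutrophils store their antimicrobial proteins in granules that are filled in sequence while the cells mature in the marrow. Myeloperoxidase (Mpo), a heme enzyme that makes hypochlorous acid, lies in the azurophil granules, which form first. Lipocalin 2 and cathelicidin (Camp), a precursor of a membrane-breaking peptide, lie in the specific granules, which form later. S100A8 and S100A9 pair as calprotectin, which binds zinc and manganese and is held in the cytosol of neutrophils and monocytes, not in granules. Lipocalin 2 captures bacterial siderophores and so keeps iron from bacteria, and in mice hepatocytes also secrete it in large amounts in the acute phase response, under IL-6 and IL-1. Wfdc21 encodes a small secreted protein of the whey acidic protein family, whose members include protease inhibitors.

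Stretches around the gene starts are shown because Lcn2, Wfdc21 and S100a9 were all lower in the propolis pool but by very different amounts. RefSeq promoter windows, 250 bases before to 50 after the gene start on assembly GRCr8, were found for 5 of the 6 genes, all but S100a8. The windows of the 2 genes furthest apart between the pools and of S100a9, each 5′ to 3′ on the gene's strand, read as follows, with capitals for matches to the 4 motifs named below.
Lcn2, chr3:36081731-36082030, minus strand: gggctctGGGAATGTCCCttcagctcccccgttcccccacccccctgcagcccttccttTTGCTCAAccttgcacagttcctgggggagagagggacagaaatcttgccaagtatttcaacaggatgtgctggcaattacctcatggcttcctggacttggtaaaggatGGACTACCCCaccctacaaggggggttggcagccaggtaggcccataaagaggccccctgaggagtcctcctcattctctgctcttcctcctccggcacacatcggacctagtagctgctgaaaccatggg
Wfdc21, chr10:69125086-69125385, plus strand: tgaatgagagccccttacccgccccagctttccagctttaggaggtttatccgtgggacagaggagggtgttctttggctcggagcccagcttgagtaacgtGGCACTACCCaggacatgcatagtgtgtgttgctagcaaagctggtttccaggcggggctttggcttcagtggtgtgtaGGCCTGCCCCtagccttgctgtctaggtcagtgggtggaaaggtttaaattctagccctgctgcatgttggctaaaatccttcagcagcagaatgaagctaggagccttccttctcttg
S100a9, chr2:178490573-178490872, minus strand: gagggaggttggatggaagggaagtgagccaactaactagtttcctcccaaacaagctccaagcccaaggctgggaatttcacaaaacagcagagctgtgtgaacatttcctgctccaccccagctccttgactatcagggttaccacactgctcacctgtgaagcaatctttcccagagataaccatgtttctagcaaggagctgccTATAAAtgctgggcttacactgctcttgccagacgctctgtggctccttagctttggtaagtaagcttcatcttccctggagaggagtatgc

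The motifs, chosen with the values known and searched on both strands, were TTGCNNAA for C/EBP, GGG and CC with any 5 bases between them for NF-kB, TTCNNNGAA for STAT factors and TATAAA for the TATA box. The Lcn2 window held 1 C/EBP match, TTGCTCAA, and 3 NF-kB matches, of which GGGAATGTCC and GGAATGTCCC overlap. The Wfdc21 window held 2 NF-kB matches and the S100a9 window a TATA match. Of the windows not printed, that of Mpo held 3 NF-kB matches and that of Camp 2. A C/EBP match was found in 10.6% of 33469 promoter windows, an NF-kB match in 47.3%, a STAT match in 8.87% and a TATA match in 14.2%, so the NF-kB letters in particular are common. No window of the 5 genes held a STAT match. A match shows only that the letters are there.

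Lcn2 and Wfdc21 were far lower in the propolis pool, S100a8, S100a9 and Mpo were lower by smaller amounts, and Camp was near the limit of detection in both. Of the 6 genes, 5 were at least 2-fold lower and none was at least 2-fold higher. With 50 signal units added to both arrays, S100a9 and Mpo no longer passed 2-fold and the count was 3, a setting for which no share over all genes is given here. Over all 11915 genes with a detected probe, 3.64% were lower by 2-fold or more and 2.55% higher by 2-fold or more, but Lcn2 and Wfdc21 were chosen on this contrast and nothing can be read from that comparison. Of the 4 genes detected on both arrays all 4 were at least 2-fold lower, against 2.69% lower and 1.75% higher at that size over the 10976 genes detected on both. The median difference of the 6 genes was -1.68 with Mpo and Camp taken at their bounds, against 0.02 over all genes. Lcn2 and Wfdc21 are among the 4 and among the 6, so nothing can be read from these comparisons either. Of the 9 probes, 4 were detected on both arrays, 2 on 1 array and 3 on neither. RNA of a whole liver cannot tell fewer cells of a type from less RNA per cell.

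**Figure D1:**
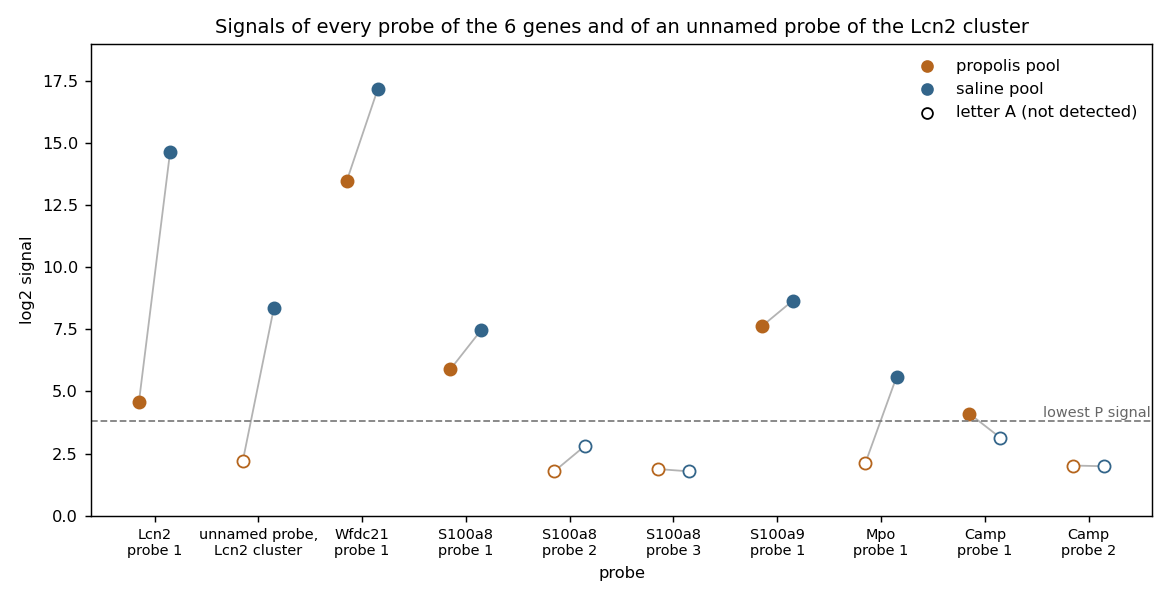
Log2 signal (vertical axis) of every probe of the 6 genes and of the unnamed probe of the Lcn2 cluster, with the propolis pool on the left and the saline pool on the right of each pair; open circles carry the letter A, and the dashed line is the lowest signal with the letter P (3.83). Lcn2 lies at 4.59 in the propolis pool and 14.66 in the saline pool, while both Camp probes lie close to or below the line in both pools.

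The Lcn2 probe read 4.59 in the propolis pool and 14.66 in the saline pool, both with the letter P. This is a log2 difference of -10.07, or 1071-fold lower, and the lowest difference of the 23054 probes detected on both arrays. In the propolis pool the signal lay 0.76 log2 units above the lowest detected signal (3.83), with 8.64% of detected probes below it, and in the saline pool 98.0% of detected probes lay below it. The probe ranked 493rd of 41012 by brightness in the saline pool was thus close to the detection limit in the propolis pool, and the exact fold rests on that weak signal. The probe lies on chromosome 3 from 11511592 to 11511651, minus strand, as the authors' table places it, with no genome build named there.

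A further probe bore on Lcn2 without carrying its symbol. It was found after the values were seen, through the UniGene cluster (a group of transcript sequences taken to be of the same gene) that it shares with the Lcn2 probe, and it was designed on an expressed sequence tag. It lies 607 bases from the Lcn2 probe, on chromosome 3 from 11512258 to 11512316, with the plus strand given for it where Lcn2 is on the minus strand. It read 2.20 with the letter A in the propolis pool and 8.37 with the letter P in the saline pool. Against the lowest detected signal of the propolis array it was at least 23.2-fold lower there. So 2 different spots of this cluster, at signals far apart in the saline pool, were both near or below the edge of detection in the propolis pool. Whether the second probe binds the Lcn2 transcript itself or RNA of the opposite strand was not tested.

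Wfdc21 was read by a single probe, on chromosome 10 from 71975686 to 71975745, plus strand. It read 13.46 in the propolis pool and 17.17 in the saline pool, a log2 difference of -3.71, or 13.1-fold lower, and 12th from the bottom among probes detected on both arrays. Both signals were high, at rank 1005 in the propolis pool and rank 75 in the saline pool, so that this difference lies far from the detection limit. In the saline pool it was among the 92 probes with a signal of at least 17.

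S100a8 read 5.89 in the propolis pool and 7.49 in the saline pool by the probe designed on its messenger RNA, a log2 difference of -1.60 (3.03-fold lower). S100a9, its partner in calprotectin, read 7.62 in the propolis pool and 8.66 in the saline pool, a difference of -1.04 (2.05-fold lower). The subunits thus lay on the same side of 0, with ranks of 179 and 518 from the bottom among the 23054 probes. S100a8 had 2 further probes, designed on an expressed sequence tag and given the minus strand where the first is on the plus strand, and both carried the letter A on both arrays, at 1.78 and 1.88 in the propolis pool and 2.82 and 1.78 in the saline pool. The first probe lies on chromosome 2 from 182962328 to 182962387, and that of S100a9 on the same chromosome from 182987647 to 182987706.

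Mpo read 2.13 with the letter A in the propolis pool and 5.60 with the letter P in the saline pool. It was at least 3.40-fold lower, counted against the lowest detected signal, and the saline signal was itself low, with 24.1% of detected probes below it. Camp was at the edge of detection, with 4.11 and the letter P in the propolis pool and 3.14 and the letter A in the saline pool, at least 1.21-fold higher. The propolis signal of Camp was 0.28 log2 units above the lowest detected signal. A second Camp probe, given the opposite strand, was detected on neither array (2.02 in the propolis pool and 1.99 in the saline pool). An unnamed probe 2916 bases from the first Camp probe, in another UniGene cluster and seen after the values, read 4.32 with the letter P in the propolis pool and 3.35 with the letter A in the saline pool. The bound for Camp, 0.28 on the log2 scale, was smaller than the spot-to-spot SD of weak probes (0.31), so no direction is read from it.

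**Figure D2:**
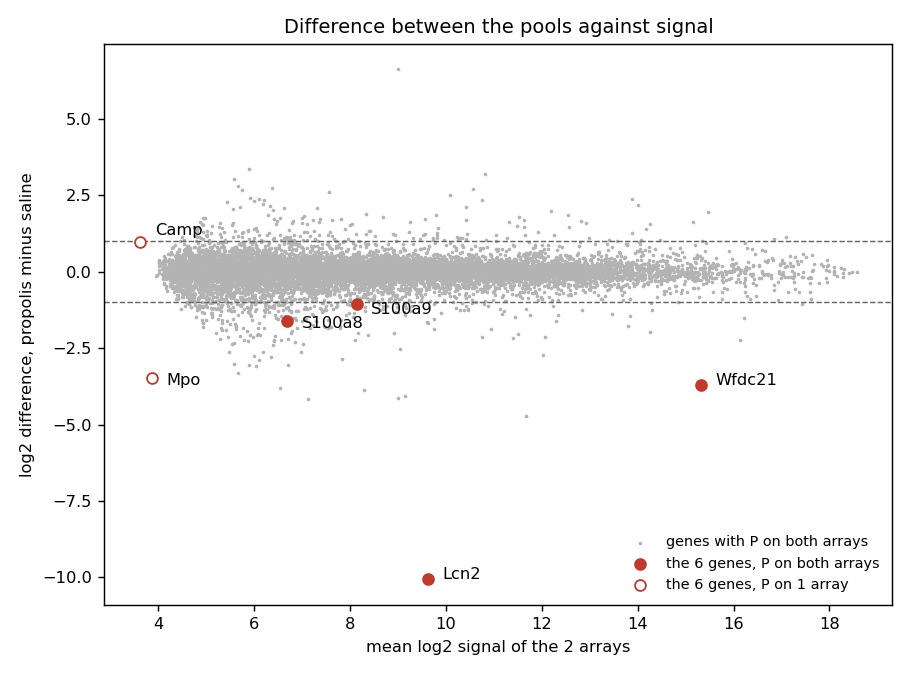
Log2 difference between the pools (propolis minus saline, vertical axis) against the mean log2 signal of the arrays (horizontal axis), with genes detected on both arrays in grey, the 6 genes in red and dashed lines at 2-fold; Mpo and Camp, open, are drawn at their measured differences and not at their bounds. Lcn2 (-10.07) and Wfdc21 (-3.71) stand below the cloud, and S100a8 (-1.60) and S100a9 (-1.04) lie at its lower edge.

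The error of these values could only be gauged between probes of the same gene. The 2 brightest probes with P on both arrays were compared in each of 2596 genes. The robust SD of a probe's difference, from the median absolute deviation between such probes, was 0.16 log2 units, and it was 0.31 for the 241 genes with a mean signal under 6 and 0.10 for the 238 genes with a mean signal of 12 or more. The differences of Lcn2, Wfdc21, S100a8 and S100a9 were larger than this spot-to-spot error. It leaves out the spread between animals, between pools and between labelling reactions.

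The label of neutrophil proteins was set against 16 neutrophil markers, 4 of them among the 6 genes, and most were not detected. Of the other 12 markers 11 had a probe under their symbol, and 9 of these 11 carried the letter A on both arrays. Undetected were Elane and Ctsg, proteases of the azurophil granules, Ngp and Mmp8 of the specific granules, Mmp9 of the gelatinase granules, the receptors Csf3r and Cxcr2, and, named after their values were seen, Fpr1 and Cd177. Ltf was the marker without a probe under its symbol. Prtn3, the azurophil protease proteinase 3, was 3.81-fold lower (5.82 in the propolis pool and 7.75 in the saline pool), and Retnlg, named in the same way, read 4.76 in the propolis pool and 4.73 in the saline pool. Summed over these 2 detected markers, the log2 signal was 6.39 in the propolis pool and 7.92 in the saline pool. This difference is that of Prtn3, since Retnlg was nearly level, and it is no measure of the neutrophil markers as a set.

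Further granule genes from wider lists, which hold several genes that the liver itself makes, were lower more often than higher. Of 7 other azurophil proteins measured, Prtn3 alone was at least 2-fold lower and none was at least 2-fold higher, with a median of -0.12. Of 16 other proteins of specific and gelatinase granules measured, 3 were at least 2-fold lower and none higher, with a median of -0.43. These 3 were Orm1, an acid glycoprotein that hepatocytes secrete (15.02 in the propolis pool and 17.24 in the saline pool), the integrin gene Itgam (4.75 and 6.46 in the same order) and Pglyrp1, a peptidoglycan-binding protein (4.59 and 5.83). Slpi, a protease inhibitor of the same protein family as Wfdc21, differed by -0.81 and by -0.85 by a second probe. The oxidase subunit genes Cybb (-0.72) and Cyba (-0.62) followed.

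Most genes of the neutrophil surface and of its maturation, many of which macrophages express as well, lay below 0. Those past 2-fold were all lower, 22.2% of the surface list and 25% of the maturation list, against 3.64% over all genes. The lists were chosen with earlier results known, so these shares are descriptions. Of 9 surface receptor and adhesion genes measured, 2 were at least 2-fold lower, Trem1 (-1.16), an amplifier of inflammatory signals, and C5ar1 (-1.13), the receptor of the complement fragment C5a, and none was higher at that size (median -0.58, or -0.32 with 50 signal units added). All 12 measured maturation and function genes lay below 0 (median -0.60), and 3 were at least 2-fold lower. These were Padi4 (-1.48), which citrullinates histones, Alox5ap (-1.37), which assists leukotriene synthesis, and Cebpe, a transcription factor needed for specific granules. Cebpe was detected in the saline pool only and was at least 2.06-fold lower when counted against the lowest detected signal, so its place past 2-fold rests on that signal. Of 10 measured genes of neutrophil attraction, the chemokine gene Ccl3 (-1.24) was at least 2-fold lower and none was at least 2-fold higher (median -0.09), while Cxcl3, detected in the saline pool only, was at least 1.64-fold lower.

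Genes of the signals known to induce Lcn2 and calprotectin lay within 2-fold. Lcn2 was picked for its large difference, so that they differ less than Lcn2 was fixed in advance. Of 19 measured genes, mostly of IL-6, IL-1 and TNF signalling but with the receptor genes Il22ra1 and Osmr, none was at least 2-fold lower or higher. Over all genes 3.64% were lower and 2.55% higher at that size. Of the 19, 10 lay below 0 and 8 above, while Osmr, detected in the saline pool only, had a bound of 0. The median was -0.10, or -0.22 over the measured differences without bounds. Feedback inhibitors that these signals induce were the furthest from 0: Nfkbia, the inhibitor of NF-kB, read 10.33 in the propolis pool and 11.29 in the saline pool (-0.96), and Socs3, the inhibitor of STAT3 signalling, 5.32 and 6.25 (-0.93). The transcription factor genes Cebpd (-0.72), Stat3 (-0.32, and -0.33 by a second probe), Nfkbiz (-0.28, and -0.46 by a second probe) and Cebpb (-0.22) lay below 0 by smaller amounts. The NF-kB subunit genes, named after their values were seen, had no common direction across probes. Nfkb1 differed by 0.17 (0.15 by a second probe), Nfkb2 by 0.20 (-0.72 by a second probe) and Rela by 0.04 (-0.16 by a second probe). Among the cytokines, Il1b differed by -0.24 (-0.13 by a second probe), and Il6 and Tnf were detected on neither array.

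Partners of the proteins were mostly within 2-fold, with Ager and Cd36 outside it. Slc22a17, a receptor for lipocalin 2, differed by -0.04 and Lrp2, the megalin receptor that also takes it up, by 0.48. Of 13 measured genes of lipocalin 2 uptake, siderophores and iron, none passed 2-fold, and the furthest were Bdh2 (0.84), which has been tied to siderophore synthesis in mammals, the iron transporter gene Slc11a1 (-0.83) and the hepcidin gene Hamp (0.73). Of 11 measured receptors and partners of S100A8, S100A9 and cathelicidin, Ager, the receptor for advanced glycation end products, read 4.95 in the propolis pool and 7.75 in the saline pool and was 6.96-fold lower. Cd36 was 2.37-fold higher and Cd14, a co-receptor of Tlr4, differed by 0.60 (0.62 by a second probe). The list's median was -0.17.

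Relatives of Lcn2 and Wfdc21 lay closer to 0 than these genes, with Wfdc18 taken at its bound. Lcn2 and Wfdc21 were picked for their large differences, so nothing can be read from that. Some relatives of S100a8 and S100a9 differed by about as much as S100a9 did. Among 15 measured genes of the lipocalin family, 10 lay above 0 and the median was 0.17. Beside Lcn2, only Orm1 was at least 2-fold lower, and Obp1f, an odorant-binding lipocalin, was 2.02-fold higher, while the abundant liver lipocalins Rbp4 (0.26), Ambp (0.08) and Apom (0.24), named after their values were seen, were close to 0. Of 8 measured whey acidic protein genes, Wfdc21 and Wfdc18 were at least 2-fold lower, with Wfdc18 detected in the saline pool only (2.80 in the propolis pool and 5.39 in the saline pool, at least 2.95-fold lower), and Wfdc3 differed by 0.75. In the S100 list 10 of 11 measured genes lay below 0 (median -0.80), 4 of them at least 2-fold: S100a8, S100a9, S100a6 (-1.13) and S100pbp (-1.50), the last of which encodes a binding partner and not an S100 protein. S100a4 differed by -0.91, but its probes ranged from -0.93 to 0.16. No measured heme peroxidase other than Mpo passed 2-fold (3 measured, median -0.05, with Pxdn at 0.58, Ptgs1 at -0.46 and Duox1 at -0.05).

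**Figure D3:**
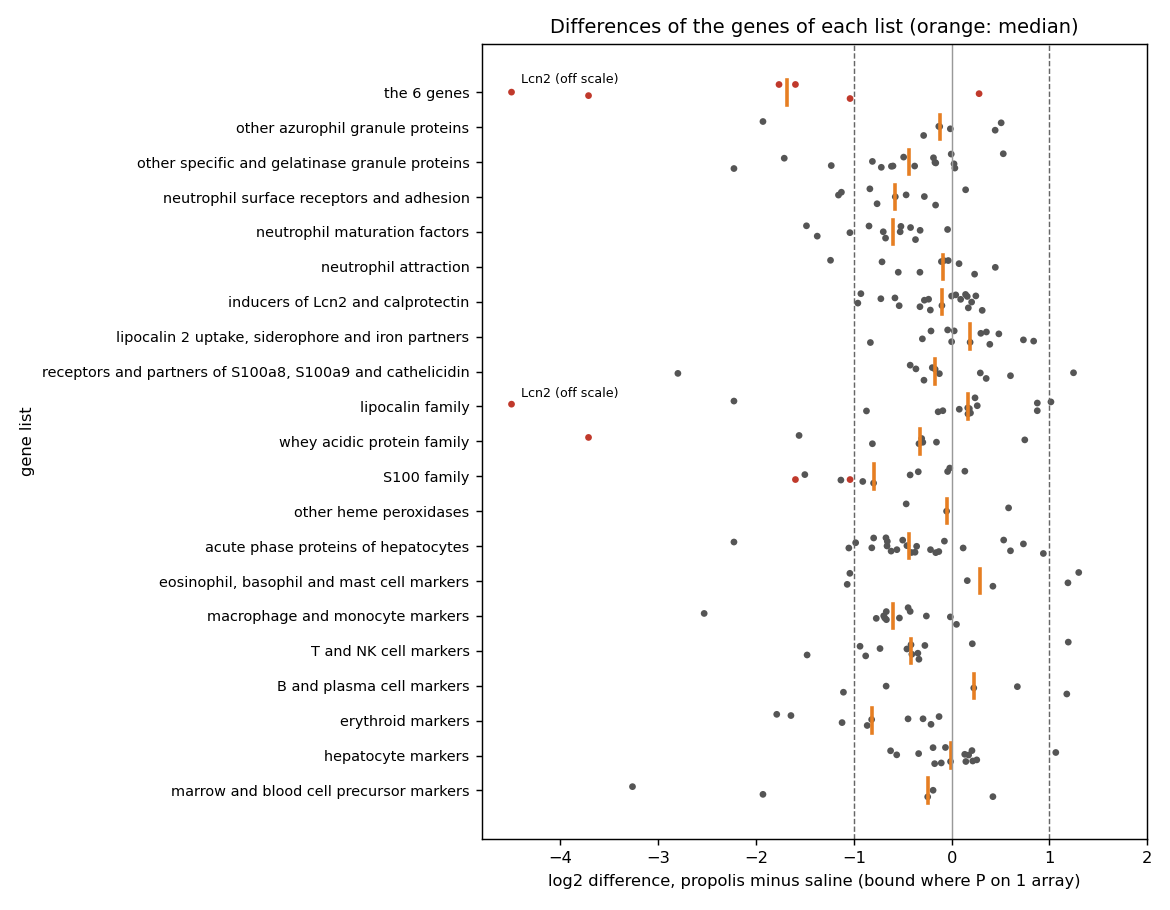
Log2 difference (propolis minus saline, at the bound where a gene was detected on 1 array) of each measured gene, by list, with the 6 genes in red, medians in orange and dashed lines at 2-fold; Lcn2 (-10.07) is drawn at the left edge. Medians of the neutrophil surface (-0.58), maturation (-0.60), macrophage (-0.60) and erythroid (-0.82) lists lie below 0, while that of the hepatocyte list lies at -0.01.

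Acute phase genes of hepatocytes, a list chosen with earlier results known, lay mostly below 0. Of 24 measured, 19 lay below 0 and 5 above, with a median of -0.43 against 0.02 over all genes. Of them 2 were at least 2-fold lower (8.33%, against 3.64% over all genes), Orm1 (4.68-fold) and the kininogen gene Kng1 (2.07-fold). None was at least 2-fold higher, with A2m at 0.94. Fgl1 (-0.98), Lbp (-0.82), which binds bacterial lipopolysaccharide, and Itih4 (-0.80) followed. Markers of other cells differed too, and their part in the values of the 6 genes was not tested. Of 12 macrophage and monocyte markers 11 lay below 0 (median -0.60), with Marco 5.78-fold lower and a summed log2 signal of 16.34 in the propolis pool and 16.89 in the saline pool. All 9 measured erythroid markers lay below 0 (median -0.82), with Ahsp (-1.79) and Alas2 (-1.12) among those at least 2-fold lower. The T and NK cell list had a median of -0.41 over 12 genes, with Lck at -1.48 and Cd8b at 1.19.

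The other marker lists showed no common direction. The 5 measured B and plasma cell markers had a median of 0.23 (-0.16 with no filter on detection), with Cd79b at least 2.26-fold higher and Blk at least 2.15-fold lower. Among 6 measured markers of eosinophils, basophils and mast cells (median 0.29, or 0.67 for probes with P on both arrays), Hdc (1.30) and Tpsab1 (1.19) were higher and Mcpt1 and Tpsb2 lower, the first of these at least 2.10-fold and the second 2.06-fold. Of 5 measured marrow precursor markers (median -0.24), Prtn3 and the cell cycle gene Top2a were at least 2-fold lower, but Top2a was at least 9.60-fold lower by the brightest of its probes, while another differed by 0.21. The 15 hepatocyte markers had a median of -0.01 and a summed log2 signal of 20.55 in the propolis pool and 20.49 in the saline pool. Over all 20 lists without the 6 genes, 24 of 208 measured genes were lower by 2-fold or more (11.5%) and 7 were higher by as much, with a median of -0.28. Over all genes 3.64% were lower, 2.55% were higher and the median was 0.02. The lists were chosen with earlier results of these data known, so nothing can be read from this comparison. With 50 signal units added, 10 list genes were lower and 4 higher by 2-fold or more, a setting for which no share over all genes is given here.

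The measured genes next to Lcn2 on the chromosome lay within 2-fold. Lcn2 was picked for its difference, the lowest of the probes detected on both arrays, so that they differ less was fixed in advance. In RefSeq gene order, 5 of the 8 nearest protein-coding genes were measured, and their differences lay between -0.63 and 0.16, with Bbln (-0.53) and Ptges2 (0.16) on either side. Next to Wfdc21, its relative Wfdc18 was at least 2.95-fold lower, while the other 5 measured neighbours lay between -0.25 and 0.18, with Heatr6 at 0.01. S100a8 and S100a9 lie in the S100 gene cluster, where S100a6 (-1.13) was lower as well. S100a4 was lower by its brightest probe (-0.91), with its other probes at -0.93 and 0.16. S100a7a was detected in the propolis pool only. Its bound, 0.24 on the log2 scale, was smaller than the spot-to-spot SD of weak probes (0.31), so no direction is read from it. Neighbours of Mpo lay between -0.43 and 0.56 and those of Camp between -0.60 and -0.05. These genes were set beside the 6 after the values were seen.

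**Figure D4:**
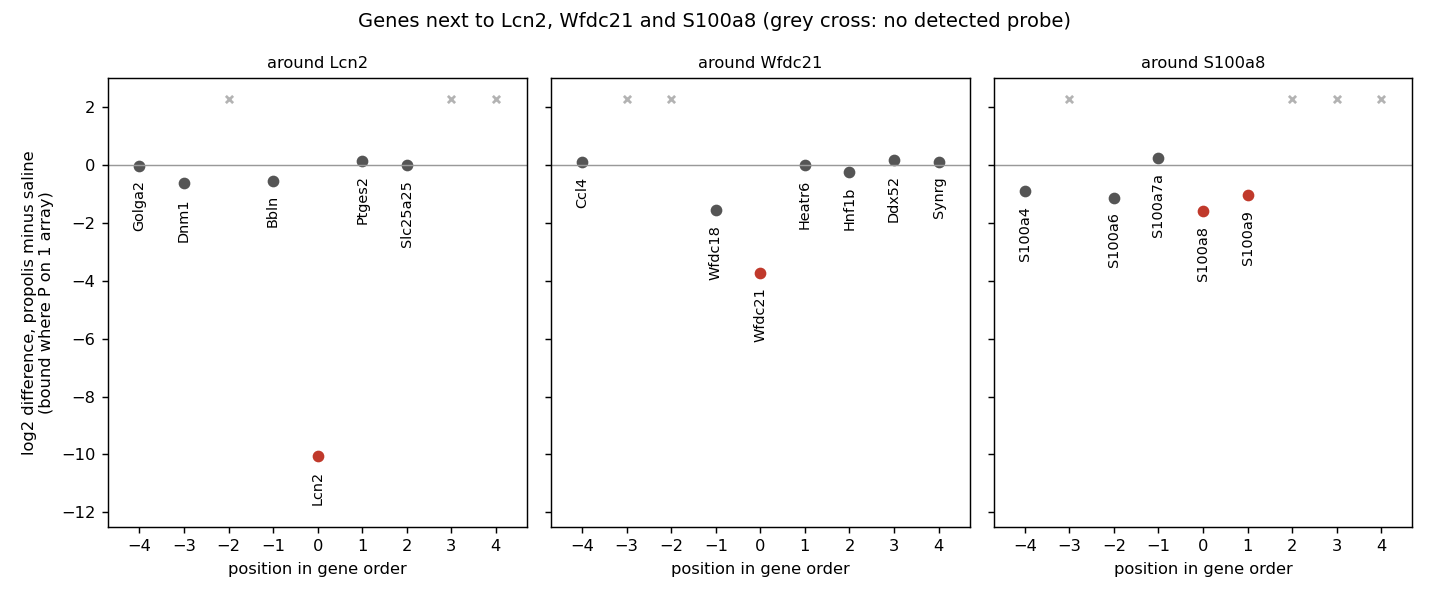
Log2 difference (propolis minus saline, vertical axis) of the protein-coding genes up to 4 places from Lcn2, Wfdc21 and S100a8 in RefSeq gene order (horizontal axis), with the 6 genes in red and crosses for genes with no detected probe under their symbol. Lcn2 (-10.07), picked for its difference, has measured neighbours between -0.63 and 0.16. Beside S100a8 and S100a9 lie S100a6 (-1.13) and S100a4 (-0.91 by its brightest probe, with its other probes at -0.93 and 0.16).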

How the data were processed

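Cy3-labelled RNA of 2 pools was hybridised to 1 one-colour Agilent array each. The submitters' processing notes name Feature Extraction 9.5. The authors deposited log2 values for 41012 probes, already normalized: both columns have a median of 5.07, and sorted they differ by at most 0.0255. How background was corrected, and by what rule letters were assigned, is not stated in these sources. The deposited fold ratio equals propolis over saline within 1.84e-07 log2 units. The deposited series matrix holds the same log2 values, rounded, for those 23054 probes that carry P in each pool (column medians 7.53 propolis, 7.52 saline), which settles its scale and direction and shows no centring.

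Symbols were updated by Entrez ID to RefSeq GRCr8 names (20959 of 21871 probes with a symbol matched). A gene was read by its brightest probe with P on at least 1 array. Where only 1 array had P, the fold is a bound against the higher of the dim value and the lowest P signal of that array (3.83 on both). Some probes above that signal carried A, such as Lpo at 4.14 in the saline pool. The words at least thus hold against the lowest P signal only and give no strict limit. Bounds near 2-fold, such as those of Cebpe, Mcpt1 and Blk, rest on that choice. Genes were counted at 2-fold. The counting was run on simulated arrays with large differences planted in bright probes only, so weak probes and bounds near 2-fold were not tested by it. The 6 genes, the 20 lists and the naming rule (genes past 1.5-fold, up to 6 a list, else the 3 furthest from 0; core neutrophil markers, inducers and receptors) were chosen with earlier results of these data known. Lists overlap. The genes nearest to Lcn2 and Wfdc21 in signal, also in that rule, are not given because levels of different probes cannot be compared. Summed signals of a list depend mostly on its brightest probes and are read only between the pools. Alternatives changed scaling, source, offset, detection filter, threshold and probe summary. Python 3.11.15, numpy 2.4.6, pandas 2.3.3 and statsmodels 0.14.6 were used. The number of arrays limits the precision.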

Additional observations from a re-analysis of the deposited data

How the results depend on the processing

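No paired analysis was possible because each group has 1 pool. Scaling by the median, the 75th percentile or quantiles could hardly move a difference, because the deposited columns already had nearly the same sorted values. Raising values to the lowest P signal repeats the bound used for Mpo and Camp and leaves probes with P on both arrays as they were. Loess centring (span 0.3) moved no difference of the 6 genes by more than the spot-to-spot spread. None of the 6 differences changed sign under any of the 10 alternatives that gave a value. For Mpo and Camp this was fixed wherever a bound was used, since a bound cannot change sign. With 50 signal units added, Lcn2 differed by -8.45, S100a8 by -1.07, S100a9 by -0.88 and Mpo by -0.61, Wfdc21 stayed at -3.71, and 3 of the 6 genes were at least 2-fold lower in place of 5. That offset shrinks weak signals by its construction. With no filter on detection Mpo differed by -3.47 and Camp by 0.97, their measured differences in place of bounds. Keeping probes with P on both arrays, or the series matrix, left out Mpo and Camp and gave 4 genes. Of the list genes, 24 were at least 2-fold lower and 7 higher, against 10 and 4 with 50 units added, 60 and 15 at 1.5-fold, and 8 and 0 at 3-fold, a rule of size with no test behind it. Shares over all genes with the offset, at 1.5-fold and at 3-fold are not given here, so these counts are descriptions only. Of 200 recomputed list medians 14 moved by more than the spot-to-spot spread. These were of the eosinophil, basophil and mast cell list (0.29, against 0.67 with P on both arrays, 0.68 in the series matrix, 0.10 with 50 units added and 0.00 with no filter), the B and plasma cell list (0.23, against 0.07 with 50 units and -0.16 with no filter), the S100 list (-0.80, against -0.52 with 50 units, -0.56 over the mean of probes and -0.34 with no filter), the specific granule list (-0.43, against -0.24 with 50 units and -0.18 with no filter), the surface receptor list (-0.58, against -0.32 with 50 units and -0.28 with no filter) and the erythroid list (-0.82, against -0.56 with 50 units). The heme peroxidase median (-0.05) was 0.05 with no filter.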
